A study of Solanum lycopersicum with 12 samples.

Results

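LA2711 is a tomato genotype that the study describes as salt tolerant, and its roots were compared here after 2 hr and after 30 min of salt. Chosen were all samples titled with LA2711 and one of these times, which are 4 of the 12 arrays of the series, with 2 arrays at 2 hr and 2 at 30 min. Each array carried root RNA of a salt-treated LA2711 seedling in one dye and root RNA of a control seedling in the other, with the dyes exchanged on the second array of each time. The other 8 arrays hold LA2711 at 6 hr and the salt-sensitive genotype ZS-5 at 30 min, 2 hr and 6 hr. The sources used here do not give the salt and its dose, the age of the seedlings or the number of plants per RNA, nor do they state whether a single control RNA served several times. The labelled tissue could not be checked against root markers, because the files hold ratios and no levels.

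Salt reaches a root first as an osmotic stress and then as an ionic stress, when sodium enters the cells. Roots answer within minutes to hours through hormones such as abscisic acid, jasmonate and ethylene, through transcription factors of the NAC and ERF families, and through genes for osmolytes, transport, defence proteins and the removal of peroxide. The array carries clones from subtracted libraries, a cloning method that enriches transcripts whose amounts differ between samples, so that its clones are no random sample of the genome.

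The values are log2 ratios of the 2 RNAs on an array. All 12 arrays run the same way, since the sign of one dye orientation had been turned before deposit, but the sources used here do not state which of the treated and the control RNA is the numerator. The results therefore speak of a positive and a negative side, and a change is the ratio at 2 hr minus the ratio at 30 min, taken between arrays with the treated RNA in the same dye. Salt may have raised or lowered the transcripts of either side, and this direction cannot be told here. Runs of 3 adjacent spots were averaged to 1 clone. Of 3424 clone positions, 3146 were measured on all 4 arrays and 278 were not. A platform annotation named 79 of the clones, which stand for 38 genes. Of these, 77 clones of 36 genes were measured on all 4 arrays, while the 2 single clones of WRKYIId-1 and LOC778219 were not. WRKYIId-1, a WRKY transcription factor gene, was read on 1 of the 2 arrays of 2 hr, at a centred log2 ratio of 1.18, against -1.23 and -0.98 at 30 min. LOC778219 was read on 1 array of 2 hr, at -1.67, against -2.73 and -2.53 at 30 min, and no change is given for either gene. Spot numbers tell the clones of a gene apart.

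Each array was centred on its median clone. Before centring, the array medians were -0.15 and -0.56 at 2 hr, against 0.49 and -0.05 at 30 min, so that centring adds 0.57 to each change in LA2711. The 2 dye-swap arrays of a time share their RNA and count as 1 replicate, so the change within LA2711 has no test. It is given as the mean ± SD of the 2 array pairs, and a clone was counted where it moved at least 2-fold to the same side on both pairs. This SD covers the spread between arrays but not the plants, and a dye effect that both times share cancels and does not enter it. The only replicated test takes both genotypes as replicates, uses limma with Benjamini-Hochberg adjustment over 3017 clones, and asks whether the mean change of LA2711 and ZS-5 differs from 0. In bulk root RNA, fewer cells of a type and less RNA per cell cannot be told apart.

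Between 30 min and 2 hr of salt, the ratios of LA2711 roots spread out, and more clones moved to the negative side than to the positive. At least 2-fold on both array pairs moved 943 of 3146 clones, or 30.0%. Of these, 254 (8.07%) moved to the positive side and 689 (21.9%) to the negative side. Without centring 1275 clones (40.5%) moved, and the split was 83 (2.64%) against 1192 (37.9%), and after quantile normalisation it was 471 against 484, so the balance of sides depends on how arrays are scaled. Clones with a change of at least 4-fold numbered 44 on the positive side and 324 on the negative side, and 2 and 27 passed 16-fold. The changes ran from -6.07 to 4.40 around a median of -0.01, with 5% of clones below -3.01 and 5% above 1.36. The 2 array pairs gave close values, with a correlation of 0.975 across the 3146 clones, which share their RNA, and a median absolute difference of 0.18.

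The ratios were wider at 2 hr. Over clones, the SD of the centred ratios was 1.54 and 1.57 on the 2 arrays of 2 hr, against 0.78 and 0.77 on those of 30 min. At 2 hr, 1304 clones (41.4%) lay at least 2-fold from 0 on both arrays, 444 (14.1%) of them positive and 860 (27.3%) negative. At 30 min there were 303 (9.63%), with 167 (5.31%) positive and 136 (4.32%) negative. Since the arrays of the 2 times differ in spread, results were also computed with arrays scaled to 1 spread, and after quantile normalisation, together called the rescalings. Where they turn the side of the LA2711 change of a named clone described below, this is given with the gene. For unnamed clones, ZS-5 changes and differences between the genotypes, rescaled values of single clones are not given. Shifts in size are given for some clones only, so a change printed without them may also have shifted. Of the 77 named clones, 37 changed sign with arrays scaled to 1 spread, 26 after quantile normalisation and 16 without centring. Of the 27 named clones counted as moved, 24 kept their side under all 3, and the exceptions were AADC1B and 2 clones of LOC544267.

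**Figure D1:**
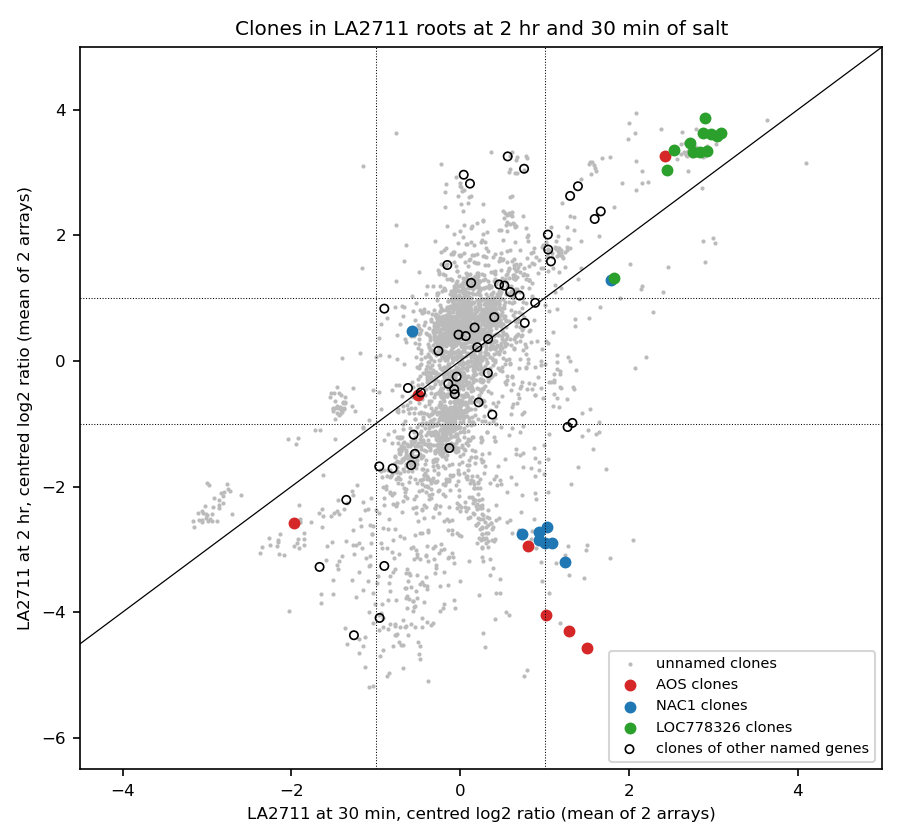
Each point is 1 clone in LA2711, with its centred log2 ratio at 30 min on the x axis and at 2 hr on the y axis (means of 2 arrays); dotted lines mark 2-fold and the diagonal marks equal ratios. Of the clones of AOS (red) and NAC1 (blue), 4 of 7 and 7 of 9 lie at lower right, positive at 30 min and negative at 2 hr, while the 12 clones of LOC778326 (green) are positive at both times.

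Most clones past 2-fold at 2 hr had been near 0 at 30 min. Under 2-fold on both arrays at 30 min and past it on both at 2 hr were 935 clones, 294 positive and 641 negative. These numbered 289 after quantile normalisation and 306 with arrays scaled to 1 spread. Past 2-fold on the same side at both times were 112 positive and 106 negative clones. Opposite sides past 2-fold at the 2 times were seen for 24 clones, of which 23 were positive at 30 min and negative at 2 hr, and the 24 became 83 and 80 under these rescalings. These 23 moved by a median of -4.35. They include 2 clones of AOS and 2 of NAC1, and 20 of the 24 clones are unnamed here.

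Of the 77 named clones, 8 (10.4%) moved at least 2-fold to the positive side, 19 (24.7%) to the negative side and 50 to neither, near the 8.07% and 21.9% of all clones. AOS and NAC1 make up 11 of the 19 negative clones. By gene, 6 had a clone that moved to the positive side, 9 had one that moved to the negative side and 21 had neither. Without centring, 6 named clones (7.79%) moved to the positive side and 27 (35.1%) to the negative, against 2.64% and 37.9% of all clones. Past 2-fold only without centring, on the negative side, were ERF3, Hsp90-1, NP24-I, AAP2, PPCK1, PSY2, LOC543916 and the MT2 clone at spots 8869 to 8871. The values of the 10 genes with the largest changes on each side are given by array, first the array with the treated RNA in Cy5 and then the one with it in Cy3. For 2689 of all 3146 clones (85.5%), the arrays of the 2 times did not overlap, so such a gap in a single gene is common here.

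Jasmonate is made from lipid hydroperoxides, and the gene with the largest change belongs to this oxylipin pathway. AOS encodes allene oxide synthase, which makes the first committed precursor of jasmonate. Its clone at spots 1384 to 1386 read -4.54 and -4.59 at 2 hr, against 1.59 and 1.41 at 30 min. The arrays of the 2 times lay far apart on opposite sides of 0, with a change of -6.07 ± 0.09 (SD, 2 array pairs). It is the lowest change among all 3146 clones. Over both genotypes the change was -6.03 ± 0.32 (SE), with an adjusted p of 0.000153 by limma. Of the 7 AOS clones, 3 more moved past 2-fold, with changes of -5.60, -5.06 and -3.75. The other 3 AOS clones differed from these, with changes of -0.62, -0.04 and 0.83, and each of the 3 turned to the other side under at least 1 rescaling. The clone at spots 1540 to 1542 read 3.42 and 3.11 at 2 hr, against 2.60 and 2.26 at 30 min, and so was positive on every array. Clones that share the name AOS thus held opposite sides at 2 hr, and which of them report the AOS transcript was not tested.

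DES, or divinyl ether synthase, uses the same kind of substrate to make divinyl ether oxylipins. It read 2.34 and 1.68 at 2 hr, against 1.38 and 0.70 at 30 min. The arrays of 2 hr lay above those of 30 min, but the change of 0.97 ± 0.01 stayed under 2-fold, and it lay on the negative side with arrays scaled to 1 spread. The test over both genotypes gave 0.09 ± 0.48, with an adjusted p of 0.897. Of the 8 oxylipin clones, 0 moved to the positive side and 4 to the negative side, and the median change was -2.18. All 4 are clones of AOS, and 21.9% of all clones moved to the negative side.

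NAC1 encodes a NAC transcription factor, of a plant family with many members that act in stress. Its clone at spots 3064 to 3066 read -3.34 and -3.07 at 2 hr, against 1.34 and 1.15 at 30 min. Both arrays turned from one side to the other, with a change of -4.45 ± 0.32, and the test over both genotypes gave -4.89 ± 0.34 (adjusted p = 0.000153 by limma). With arrays scaled to 1 spread the LA2711 change was -6.77. Of 9 NAC1 clones, 7 moved past 2-fold to the negative side, with changes of -4.45 to -3.49, against 21.9% of all clones. The other 2 had changes of -0.51 and 1.04, and neither moved past 2-fold on both pairs. With arrays scaled to 1 spread these were -3.79 and 2.08. The clone with the change of 1.04, at spots 3769 to 3771, passed the test over both genotypes on the positive side (1.18 ± 0.34, adjusted p = 0.031). Without centring this call was lost, at 0.90 (adjusted p = 0.155 by limma).

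**Figure D2:**
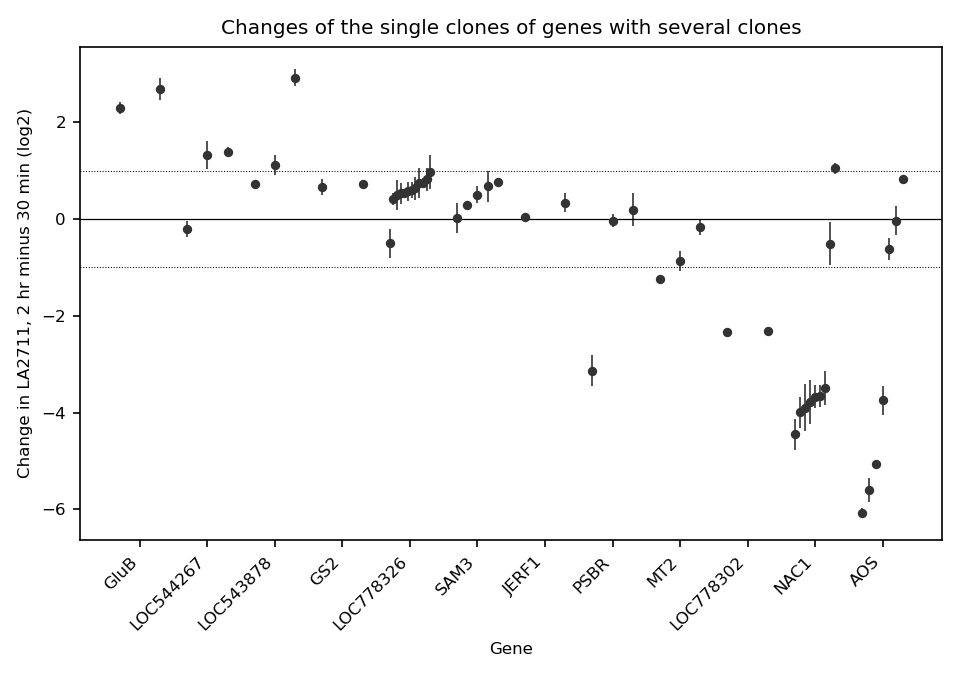
Each point is 1 clone of the 12 genes that have several measured clones, with its change in LA2711 (2 hr minus 30 min, log2) on the y axis; bars are the SD of 2 array pairs and dotted lines mark 2-fold. AOS clones run from -6.07 to 0.83 and NAC1 clones from -4.45 to 1.04, while the 2 clones of LOC778302 lie together at -2.33 and -2.32.

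Ethylene is made from S-adenosylmethionine by way of the enzyme that ACS genes encode, and ERF proteins are transcription factors named for their part in the ethylene response. With centring, none of the 4 ethylene clones, from 3 genes, moved past 2-fold in LA2711 or passed the test over both genotypes by limma. ACS7, for an ACC synthase, had a change of -0.46 ± 0.14. ERF3 had a change of -0.72 ± 0.08, which turned to the positive side under quantile normalisation and with arrays scaled to 1 spread. Without centring it was -1.29, past 2-fold on both pairs. The 2 clones of JERF1, an ERF gene, had changes of 0.34 ± 0.20 and 0.04 ± 0.01, and both turned to the negative side without centring and under both rescalings.

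SAM3 encodes S-adenosylmethionine synthetase, which makes the methyl donor that ethylene synthesis also uses. Its clone at spots 3181 to 3183 read 1.19 and 1.24 at 2 hr, against 0.44 and 0.48 at 30 min. The arrays of 2 hr were higher, by 0.76 ± 0.01, which is under 2-fold, and with arrays scaled to 1 spread the change was negative. The 5 SAM3 clones had changes of 0.02 to 0.76, and 0 of them passed 2-fold in LA2711 or the test over both genotypes. All 5 turned negative with arrays scaled to 1 spread.

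Genes of nitrogen and amino acid metabolism gave 0 positive and 1 negative clone out of 6, where 21.9% of all clones were negative. AADC1B, for an aromatic amino acid decarboxylase, read -3.24 and -3.32 at 2 hr, against -1.48 and -1.85 at 30 min. It was negative on all 4 arrays and lower at 2 hr, with a change of -1.61 ± 0.20, but the change turned to 0.42 after quantile normalisation and to 1.42 with arrays scaled to 1 spread. Over both genotypes it was -2.13 ± 0.34 (adjusted p = 0.0022 by limma), a call lost under these rescalings (adjusted p of 0.861 and 0.907). GS2 encodes glutamine synthetase, which fixes ammonium. Its clone at spots 1831 to 1833 read 2.58 and 2.19 at 2 hr, against 1.90 and 1.43 at 30 min. It was positive on all 4 arrays, and its change of 0.72 ± 0.06 was under 2-fold and turned negative under both rescalings. The test over both genotypes gave 1.25 ± 0.34 for GS2 (adjusted p = 0.0246). The call for GS2 was lost without centring (adjusted p = 0.160), after quantile normalisation (0.462) and with arrays scaled to 1 spread, where the estimate was -1.03 (0.335). Without the arrays of ZS-5 at 30 min the estimate was 0.91, and without those of ZS-5 at 2 hr 0.78. AAP2, an amino acid transporter, had a change of -0.91 ± 0.07, which turned positive under both rescalings. GAD2, for glutamate decarboxylase, which makes the signalling amino acid GABA, had a change of 0.02 ± 0.16, which turned negative under both rescalings and without centring, and gts1 one of 0.36 ± 0.04, which turned negative without centring.

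In carbon metabolism 1 of 3 clones moved to the positive side and 1 to the negative, against 8.07% and 21.9% of all clones. ADH2 encodes alcohol dehydrogenase, an enzyme of fermentation. It read 2.90 and 2.75 at 2 hr, against 0.14 and 0.09 at 30 min. Near 0 at 30 min and far positive at 2 hr, it had a change of 2.71 ± 0.07. The test over both genotypes gave 3.03 ± 0.75 with an adjusted p of 0.0164, and 0.0673 without centring. Leaving out both arrays of LA2711 at 2 hr gave 0.168 for ADH2, leaving out those of ZS-5 at 2 hr 0.0887, and leaving out those of ZS-5 at 30 min 0.0515. BMY3 encodes a beta-amylase, which degrades starch. It read -1.42 and -1.35 at 2 hr, against -0.14 and -0.12 at 30 min. The arrays of 2 hr were lower by a change of -1.26 ± 0.03, and the test over both genotypes gave -1.32 ± 0.33 (adjusted p = 0.018). For BMY3 this p was 0.0757 when LA2711 at 30 min was left out and 0.0991 when ZS-5 at 2 hr was. The call was also lost after quantile normalisation, at -0.36 (adjusted p = 0.594), and with arrays scaled to 1 spread, at -0.74 (adjusted p = 0.292). PPCK1, for the kinase that activates phosphoenolpyruvate carboxylase, had a change of -0.88 ± 0.04, under 2-fold, and of -1.45 without centring, past 2-fold.

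Defence proteins gave 3 positive and 0 negative clones out of 6, which stand for 3 genes, with a median change of 1.71, against 8.07% positive and 21.9% negative of all clones. LOC543878, for which RefSeq lists the synonym PR5, a family of thaumatin-like proteins, has a clone at spots 7648 to 7650 that read 2.98 and 2.95 at 2 hr, against -0.06 and 0.14 at 30 min. It had no clear side at 30 min and was positive at 2 hr, with a change of 2.92 ± 0.17, the largest positive change of any named gene. The other 2 clones of this gene had changes of 1.11 ± 0.21 and 0.73 ± 0.04, and the second turned to the negative side with arrays scaled to 1 spread and lay just below 0 after quantile normalisation. GluB encodes a basic beta-1,3-glucanase, which cuts a cell wall polymer of fungi and plants. Its clone at spots 9247 to 9249 read 3.35 and 3.17 at 2 hr, against 0.49 and 0.63 at 30 min. Both GluB clones moved, by 2.69 ± 0.23 and 2.30 ± 0.12, and both passed the test over both genotypes (2.77 ± 0.30, adjusted p = 0.000324, and 2.15 ± 0.28, adjusted p = 0.000842, by limma). With arrays scaled to 1 spread the LA2711 changes were 1.68 and 0.93. NP24-I encodes an osmotin-like protein, a name that comes from its accumulation in salt-adapted cells. It had a change of -0.94 ± 0.02, against the direction of the others, which turned positive under both rescalings.

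Both clones of peroxide handling moved to the positive side, as did 8.07% of all clones. The gene cat1 encodes catalase, which breaks hydrogen peroxide down. It read 0.62 and 1.05 at 2 hr, against -1.09 and -0.71 at 30 min. It lay on opposite sides of 0 at the 2 times, with a change of 1.73 ± 0.03, which was 3.82 and 3.40 under the rescalings. Over both genotypes cat1 had a change of 1.75 ± 0.38 (adjusted p = 0.00972 by limma). Without the arrays of LA2711 at 2 hr this p was 0.0842, without those of ZS-5 at 2 hr 0.0518, and without those of ZS-5 at 30 min 0.0501. TPX2 encodes a peroxidase, an enzyme that uses peroxide to oxidise cell wall and other substrates. It read 1.56 and 1.49 at 2 hr, against -0.13 and -0.18 at 30 min. The change of 1.68 ± 0.02, which was 2.61 after quantile normalisation, was close to that of cat1, but the test over both genotypes gave 0.46 ± 0.52, with an adjusted p of 0.503.

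Metallothioneins are small proteins that bind metals through cysteines. MT2 has a clone at spots 9751 to 9753 that read -0.86 and -0.85 at 2 hr, against 0.31 and 0.45 at 30 min. It crossed 0 between the times, with a change of -1.24 ± 0.09, which was -1.94 under both rescalings. The other 2 MT2 clones had changes of -0.86 ± 0.21, which turned positive under both rescalings, and -0.16 ± 0.17, which was -1.56 with 1 spread. The clone of MT4 had 0.42 ± 0.31, which turned negative without centring. Of these 4 clones, 1 moved past 2-fold, to the negative side, against 21.9% of all clones, and the median change was -0.51.

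Neither transport gene moved past 2-fold. LKT1, a potassium channel gene, had a change of 0.51 ± 0.14, and TIP, for a water channel of the vacuole membrane, had 0.33 ± 0.02. Both turned negative without centring, and LKT1 also under both rescalings. Heat shock proteins are chaperones that hold other proteins in shape. Hsp90-1 read -2.01 and -1.31 at 2 hr, against -0.84 and -0.33 at 30 min. All 4 arrays were negative and those of 2 hr were lower, with a change of -1.08 ± 0.13, but 1 of the 2 array pairs was just under 2-fold. Without centring the change was -1.65, past 2-fold on both pairs. It was 0.23 after quantile normalisation and -0.01 with arrays scaled to 1 spread. MTSHP, for a small heat shock protein of mitochondria, had a change of -0.38 ± 0.11.

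Plastid genes gave 0 positive and 2 negative clones out of 5, against 21.9% negative of all clones. PSBR, which encodes a subunit of photosystem II, has a clone at spots 1453 to 1455 that read -4.07 and -4.12 at 2 hr, against -0.71 and -1.20 at 30 min. This clone was negative on all 4 arrays and moved by -3.14 ± 0.32, while the other 2 PSBR clones had changes of -0.04 ± 0.13, which turned positive under both rescalings, and 0.19 ± 0.34, which turned negative without centring. The gene ribA, whose namesake in bacteria acts in riboflavin synthesis, read -3.32 and -3.21 at 2 hr, against -0.91 and -0.89 at 30 min. Its change was -2.37 ± 0.06. Both passed the test over both genotypes, PSBR with -3.37 ± 0.29 (adjusted p = 0.000172) and ribA with -2.66 ± 0.30 (adjusted p = 0.000359). After quantile normalisation both calls were lost, with PSBR at -1.30 (adjusted p = 0.0525) and ribA at -0.61 (adjusted p = 0.238), and the LA2711 changes were -1.01 and -0.36. With arrays scaled to 1 spread the LA2711 changes were -1.42 for PSBR and -0.74 for ribA, and ribA did not pass (adjusted p = 0.0765). PSY2, for phytoene synthase of carotenoid synthesis, had a change of -0.62 ± 0.04, which turned positive under both rescalings.

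The remaining named genes gave 2 positive and 3 negative clones out of 21 measured, with a median change of 0.53. Of all clones, 8.07% moved to the positive side and 21.9% to the negative. LOC543942, to which the tables used here give no further name, has a clone at spots 2956 to 2958 that read -4.18 and -4.56 at 2 hr, against -1.22 and -1.30 at 30 min. It was negative at both times and further from 0 at 2 hr, with a change of -3.11 ± 0.21, and the test over both genotypes gave -3.60 ± 0.35 (adjusted p = 0.000208). Its LA2711 change was -0.90 after quantile normalisation and -0.83 with arrays scaled to 1 spread, both under 2-fold, and in the second case the test gave -1.75 (adjusted p = 0.0672). LOC778302 has a clone at spots 3547 to 3549 that read -0.96 and -1.15 at 2 hr, against 1.37 and 1.17 at 30 min. It crossed 0 with a change of -2.33 ± 0.01, and its other clone moved by -2.32 ± 0.01, and under the rescalings these changes lay between -4.77 and -3.56. At 30 min, 2 hr and 6 hr the first clone averaged 1.27, -1.05 and 1.03, and the second 1.33, -0.99 and 0.84, so that both were positive at 30 min and 6 hr and negative at 2 hr.

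LOC544267 has a clone at spots 616 to 618 that read 3.04 and 2.53 at 2 hr, against 1.72 and 1.07 at 30 min. This clone was positive on all 4 arrays, with a change of 1.39 ± 0.10, and a second clone moved by 1.32 ± 0.29. Without centring the changes were 0.81 and 0.75, under 2-fold, and with arrays scaled to 1 spread they were -1.17 and -1.06. A further clone of the gene had a change of -0.21 ± 0.17. LOC778326 has the most clones of any named gene, 12. Its clone at spots 2158 to 2160 read 3.84 and 3.91 at 2 hr, against 3.11 and 2.68 at 30 min. All 12 clones were positive on every LA2711 array of the 2 times. Their changes were -0.50 to 0.97, and 0 of 12 moved past 2-fold in LA2711 or passed the test over both genotypes. The largest, of 0.97 ± 0.36, was -4.33 with arrays scaled to 1 spread, so that only the positive side at both times, and no direction of change, is given for this gene. Among single clones of the group, LOC543916, with the RefSeq synonym XTH9 of a cell wall enzyme family, had a change of -0.52 ± 0.15. This was -1.21 after quantile normalisation and -1.13 with arrays scaled to 1 spread. TCTP, for a small protein widespread in growing cells, had a change of -0.22 ± 0.04, which turned positive under both rescalings, and VAHOX1, a homeobox gene, had 0.44 ± 0.11, which turned negative without centring.

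**Figure D3:**
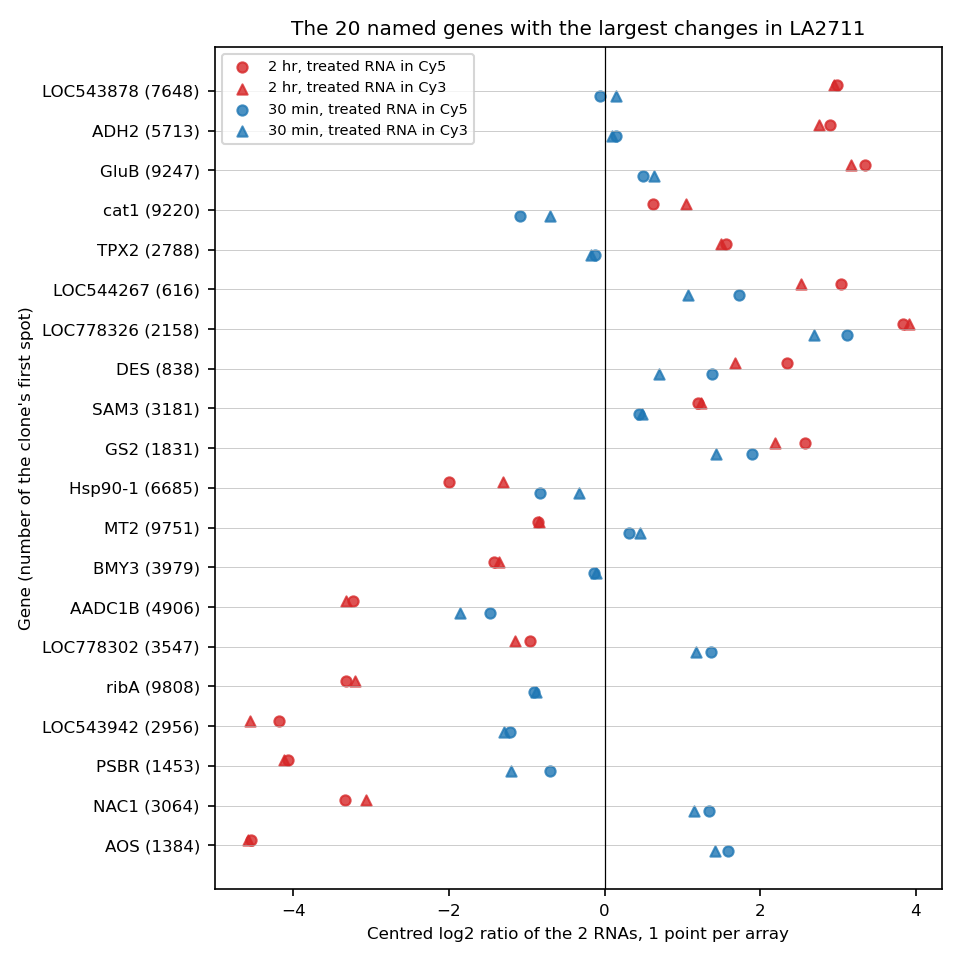
Centred log2 ratios on the 4 LA2711 arrays for the 20 named genes with the largest changes, 10 on each side, with the clone's first spot in brackets; red is 2 hr, blue is 30 min, circles have the treated RNA in Cy5 and triangles in Cy3. The dye-swap arrays of a time lie close together beside the gap between the times for AOS (-4.54 and -4.59 against 1.59 and 1.41), while the gap is smaller for GS2, SAM3 and DES.

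The largest changes outside AOS were in unnamed clones. On the positive side, the clone at spots 7402 to 7404 read 3.75 and 3.52 at 2 hr, against -0.92 and -0.60 at 30 min, a change of 4.40 ± 0.39. The next clones on this side, at first spots 1498, 4417, 2173 and 10261, had changes of 4.25, 3.36, 2.98 and 2.97. On the negative side, the clone at spots 46 to 48 read -4.75 and -5.28 at 2 hr, against 1.14 and 0.37 at 30 min, a change of -5.77 ± 0.17. The clones at first spots 4570, 3358, 679 and 355 had changes of -5.72, -5.36, -4.92 and -4.91. All 5 of the negative clones were positive at 30 min and negative at 2 hr and 6 hr. The positive ones went different ways afterwards: at 30 min, 2 hr and 6 hr, the clone at spot 1498 averaged -1.15, 3.10 and 4.37, while the clone at spot 4417 averaged -0.22, 3.14 and -1.77.

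The lead clones of AOS and NAC1 were on the negative side at 6 hr as well. The AOS clone at spot 1384 averaged -4.57 at 2 hr and -5.41 at 6 hr, and the NAC1 clone at spot 3064 averaged -3.20 at 2 hr and -5.57 at 6 hr. Other clones of these genes differed, such as AOS at spot 1540, with 3.26 at 2 hr and 3.41 at 6 hr, and NAC1 at spot 3769, with 0.48 at 2 hr and 0.92 at 6 hr. At 30 min, 2 hr and 6 hr, ADH2 averaged 0.12, 2.82 and 1.16 and GluB, at spot 9247, 0.56, 3.26 and 2.19, so that both were lower at 6 hr than at 2 hr. The 6 hr arrays had raw medians further below 0, at -0.69 and -1.26, which centring removes.

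Taking the genotypes as replicates, limma called a change between 30 min and 2 hr in 1096 of 3017 clones (36.3%), 347 (11.5%) to the positive side and 749 (24.8%) to the negative. Without centring it called 963 (31.9%), with 112 (3.71%) positive and 851 (28.2%) negative. Of the 891 clones that moved past 2-fold in LA2711 among the 3017, 783 were called on the same side. The LA2711 change is itself part of the tested mean, so this overlap is partly built in and is no separate support. Of the named clones, 10 (13.0%) were called positive and 23 (29.9%) negative. AOS, NAC1, PSBR, LOC543942, ribA, LOC778302 and GluB had the lowest adjusted p among named genes. Separate growth of the plants of each time is not stated, so these p-values measure only the spread between the conditions, which may be technical.

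ZS-5, the salt-sensitive genotype, was measured in the same way at the same times, and most of the clones that moved in LA2711 moved to the same side in it. Past 2-fold on both array pairs were 891 clones in LA2711 and 1181 in ZS-5, with 699 shared on the same side, which is 78.5% of the LA2711 clones and 59.2% of the ZS-5 clones. On the negative side 553 were shared, 85.5% of those of LA2711 and 69.7% of those of ZS-5. On the positive side 146 were shared, 59.8% of those of LA2711 and 37.6% of those of ZS-5. Over all 3017 clones, 388 moved to the positive side and 793 to the negative in ZS-5, and 244 and 647 did in LA2711. Only 2 clones passed on opposite sides. This overlap was computed with centring only, and the balance of sides depends on how arrays are scaled. Across the 3017 clones, the changes of the genotypes had a Pearson correlation of 0.83 and a Spearman correlation of 0.72, given as a description of clones that share the array.

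A clone was counted as apart where both LA2711 changes exceeded both ZS-5 changes by at least 2-fold, or the reverse. This held for 456 of 3017 clones (15.1%), with LA2711 on the positive side of ZS-5 in 195 (6.46%) and on the negative side in 261 (8.65%). Without centring the split was 46 against 576, because the uncentred median change was -0.57 in LA2711 and 0.07 in ZS-5. Each genotype has 1 replicate a time, so none of these differences has a test. Of the named clones, 10 (13.0%) were apart on the positive side and 5 (6.49%) on the negative.

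Peroxidase and oxylipin genes were among those apart. TPX2 moved by 1.68 ± 0.02 in LA2711 and by -0.76 ± 0.29 in ZS-5, a difference of 2.44. DES moved by 0.97 ± 0.01 in LA2711 and by -0.80 ± 0.37 in ZS-5. LOC543878 moved by 2.92 ± 0.17 in LA2711, while the same clone moved by 0.65 ± 0.16 in ZS-5. GAD2 had a change of 0.02 ± 0.16 in LA2711, against -3.34 ± 0.34 in ZS-5, the widest gap on the positive side among named clones, at 3.35.

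Of NAC1, 4 of 9 clones were less negative in LA2711, by differences of 1.53 to 1.93. Without centring these differences were 0.93 to 1.33. The clone at spots 3658 to 3660 moved by -3.78 ± 0.45 in LA2711 and by -5.71 ± 0.09 in ZS-5. No AOS clone was among the clones apart, and at spots 1384 to 1386 the change was -6.07 ± 0.09 in LA2711 and -5.99 ± 0.95 in ZS-5. Other AOS clones were less alike. The mean differences were -1.44 at first spot 10144 and 1.24 at first spot 805, though not 2-fold on all array pairs. The SAM3 clones at first spots 5650 and 3181 were apart by 1.34 and 1.25, with changes in ZS-5 of -1.32 and -0.50. Without centring these 2 differences were 0.74 and 0.65, under 2-fold.

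On the negative side of ZS-5 lay MT2, TIP, Hsp90-1, TCTP and PPCK1. The MT2 clone at spots 7225 to 7227 had a change of -0.16 ± 0.17 in LA2711, against 3.18 ± 0.36 in ZS-5. TIP had 0.33 ± 0.02 in LA2711, against 1.93 ± 0.22 in ZS-5. Hsp90-1 had -1.08 ± 0.13 in LA2711, against 0.48 ± 0.06 in ZS-5. For TCTP and PPCK1 the differences were -1.44 and -1.39. Other genes moved alike in size, such as cat1, with 1.73 ± 0.03 in LA2711 and 1.76 ± 0.17 in ZS-5, and BMY3, with -1.26 ± 0.03 in LA2711 and -1.37 ± 0.03 in ZS-5.

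**Figure D4:**
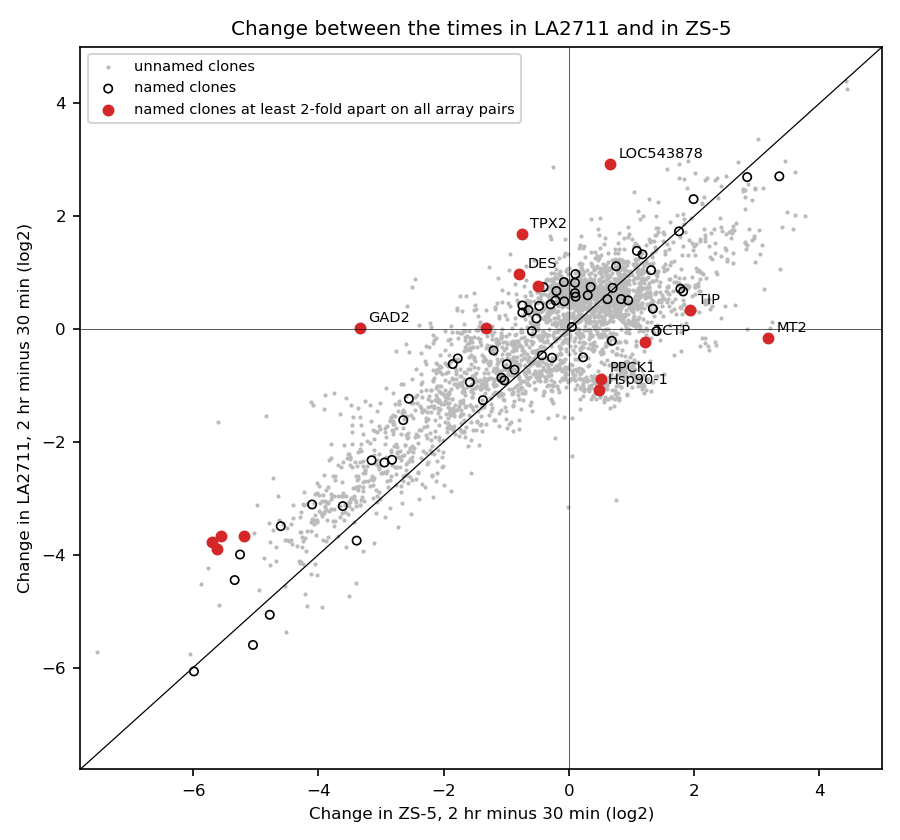
Change between the times (2 hr minus 30 min, centred log2) in ZS-5 on the x axis and in LA2711 on the y axis, 1 point per clone, with the line of equal changes. Red points are the 15 named clones at least 2-fold apart on all array pairs, among them TPX2 (1.68 in LA2711, -0.76 in ZS-5) above the line and MT2 (-0.16 in LA2711, 3.18 in ZS-5) below it.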

How the data were processed

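The authors deposited log2 ratios of treated and control root RNA, 1 per spot, for 10368 spots on 12 two-colour arrays. The sources used here name no scanner, background correction or normalization. Intensities were not used here, so the signal over background is unknown and precision is limited by the array number. On these LA2711 arrays, 9547 to 9836 spots held a value.

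Spots were averaged in runs of 3 to 1 clone, leaving out absolute log2 values of 9.965 or more. Also left out, after seeing the data, were 96 spots that recur every 324 spots and follow the dye, not the sample (mean absolute log2 of 8.81 to 9.57, positive on 100% of arrays with treated RNA in Cy5 and negative on 100% of the others). They hold 363 of the 366 values past that limit. Arrays were centred on their median over the 3017 clones measured on all 12 arrays. Changes were taken between arrays of the same treated dye. The test over both genotypes was limma 3.58.1 (lmFit and eBayes, R 4.3.3, 2-sided) on 6 condition values with genotype as covariate, 2 residual degrees of freedom and an adjusted p under 0.05. On simulated data over 3017 clones with 200 changed, the test found 40% of the log2 1 changes and 99% of those of log2 2, with 6 false calls. For the test, independent noise was drawn from the fitted spread, with no genotype difference and no difference in array scaling. The false calls in the data therefore cannot be read from it. The count past 2-fold on both LA2711 pairs recovered 26% and 100%, with 0 false counts. For this count only the spread between the 2 array pairs was simulated. It held no spread between plants and no difference in array scaling, so it cannot give the false counts in the data.

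Every annotated gene is named. For a gene with several clones, the clone with the largest change is given in full. The 10 genes with the largest changes on each side are given by array, beside 5 unnamed clones a side. A RefSeq table of assembly SLM_r2.1 held the gene IDs of 37 of the 38 genes. The members and gene lists were chosen with earlier results of these data known. Promoter motifs were not searched and no sequence is printed, because no sequence was used here. Alternatives tried were no centring, quantile normalisation, scaling to 1 median absolute deviation, other fold limits, spot medians, at least 2 spots a clone, keeping the values or spots left out, other sample units and leaving out arrays.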

Additional observations from a re-analysis of the deposited data

Results flagged for a closer look

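The clones named here lay on opposite sides of no change in LA2711 and ZS-5 on every array pair between 30 min and 2 hr. This held for 18 of the 77 named clones and for 481 of the 3017 measured on all arrays. None of these differences was tested, because each genotype has 1 replicate a time. Each is the LA2711 change minus the ZS-5 change in log2.

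The widest were a metallothionein clone, MT2 at spots 7225 to 7227, at -3.34, and the peroxidase gene TPX2 at 2.44. DES differed by 1.77, Hsp90-1 by -1.56, TCTP by -1.44 and PPCK1 by -1.39. For SAM3 this held at 4 of its 5 clones, with differences of 1.25, 1.04, 0.87 and 0.72. For LOC778326 it held at 4 of its 12 clones, with differences of 1.15, 0.88, 0.57 and -0.73, and none of the 4 was 2-fold apart on all array pairs. All 4 LA2711 changes of this gene were negative with arrays scaled to 1 spread. The remaining clones were MT4 at 1.16, JERF1 at 0.99, LOC544267 (spots 5749 to 5751) at -0.89 and VAHOX1 at 0.73. Without centring, which lowers each LA2711 change by 0.57, the mean changes of 11 of the 18 stayed on opposite sides. Among them were MT2, TPX2, DES, Hsp90-1, TCTP and PPCK1. The mean changes of the other 7 did not, among them MT4, JERF1 and VAHOX1. Under the rescalings, MT2, TPX2 and PPCK1 kept their side in LA2711. The LA2711 change of DES was -0.94 with arrays scaled to 1 spread, and that of Hsp90-1 was 0.23 after quantile normalisation. That of TCTP was 0.21 after quantile normalisation and 0.04 with 1 spread. In LA2711 all 4 SAM3 clones turned negative with 1 spread, and JERF1 did so under both rescalings.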

How the results depend on the processing

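With 1 RNA pair a time and dye swaps only, the LA2711 changes carry no measure of spread between plants, and changes near 2-fold depend on the limit and on array scaling. The 943 clones past 2-fold became 1737 at 1.5-fold and 512 at 3-fold, 1275 without centring (83 positive, 1192 negative), 955 after quantile normalisation (471 and 484) and 1119 to 1123 on a single array pair. Taking the 4 arrays as samples in limma called 2083 without and 2653 with a replicate block. The replicate number is the dye orientation, and same-numbered arrays of the 2 times deviated together (r = 0.656 across clones). Pairing arrays of unlike treated dye instead gave 778 clones past 2-fold. The 24 clones on opposite sides became 83 after quantile normalisation, 80 with arrays scaled to 1 spread, 72 at 1.5-fold, 1 at 3-fold and 31 to 42 on a single array pair. The 935 clones past 2-fold at 2 hr alone became 289, 306 and 612 after quantile normalisation, with 1 spread and at 3-fold, and 1150 to 1162 on a single array pair. The 1096 limma calls became 963 without centring (112 positive, 851 negative), 739 after quantile normalisation (312 and 427), 688 with 1 spread (148 and 540), 419 against a 2-fold threshold (limma's treat), 1893 with 12 arrays as samples and 1994 with these and a replicate block. Leaving out arrays gave 628 to 1213, the lowest without ZS-5 at 2 hr and 703 without ZS-5 at 30 min. There the single remaining genotype is assumed to vary like the other groups. The 456 clones apart from ZS-5 became 753 with 1 spread, 979 at 1.5-fold, 141 at 3-fold, 734 by the mean of the pairs, 622 without centring (46 and 576) and 721 to 874 on a single dye orientation. Under quantile normalisation, AADC1B turned to 0.42 in LA2711 and 0.093 over both genotypes, and AAP2 to 0.73 over both. With 1 spread, AADC1B turned to 1.42 in LA2711 and 0.12 over both, LOC544267 to -1.17 and -1.06 in LA2711 and -0.84 over both, AAP2 to 0.24, GS2 to -1.03 and LOC778326 to -3.83 over both. Without centring, limma's adjusted p rose above 0.05 for ADH2 (0.0673), GS2 (0.160) and LOC544267 (0.0948). It fell below 0.05 for LOC543916 (0.0301), MTSHP (0.0378) and PSY2 (0.0412). The cause of these shifts was not tested.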

Other observations

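Along the array, the LA2711 change was near even. In 12 equal runs of spots, its median lay between -0.19 and 0.18. The median of ZS-5 was less even, negative in runs 1 to 4 (-0.32 to -0.23) and positive in runs 5 to 12 (0.06 to 0.23). This step along the array was not removed from the differences between LA2711 and ZS-5.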
